A study of Mustela putorius furo with 8 samples.

Results

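CF cluster 11 was a group of 394 cells from polarizing cultures of CFTR-knockout ferret pancreatic ductal epithelium (PDE). Its members were the cells that the deposited cell table places in cluster 11 of the CF cells, 128 of 1607 cells at day 7 and 266 of 2489 cells at day 9. A further 5 cells at day 2 and 2 cells at day 5 carried the same number, so that the cluster had 401 of 11345 CF cells and of 32945 cells in the series. All 401 bore the deposited class name centroacinar. The working name of the group was myofibroblast-like centroacinar cells. The data went against that name in part. Its cells bore duct keratins beside TAGLN, FN1 and CALD1, while almost all of its ACTA2, and all of its COL3A1 and THY1, came from 1 cell nearly without keratin at each day. The group is therefore called here by its number, or by TAGLN, FN1 and CALD1.

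The study asked how loss of CFTR, the apical chloride and bicarbonate channel, alters the fate of duct cells during polarization. Cells of newborn WT and CF (CFTR KO/KO) ferrets had been expanded over serial passages, pooled from several donors of each genotype, plated on permeable supports and polarized at an air-liquid interface (ALI) in PneumaCult-ALI medium. Single-cell RNA libraries were made by the 10x Genomics droplet method on day 2, 5, 7 and 9 of ALI, 1 for each genotype and day. The comparison was between cluster 11 and the other CF cells of the same library, 1479 cells at day 7 and 2223 at day 9. Both sides thus shared genotype, donor pool, medium and day, but not necessarily the same mix of donors. The cultures hold only what survived passage of dissociated newborn pancreas, and no cell could be assigned to a donor.

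Myofibroblasts are the contractile, matrix-depositing cells of wounds and of fibrotic organs, and in the pancreas they arise mainly from stellate cells. They are recognized by smooth muscle actin (ACTA2), by actin-binding proteins such as transgelin (TAGLN) and caldesmon (CALD1), and by type I and III collagen. Epithelial cells can take on part of that set, with fibronectin (FN1), vimentin and N-cadherin, during epithelial-to-mesenchymal transition (EMT), in which keratins and junction proteins may be kept or lost. TGF-beta and activin are the best known inducers. Centroacinar cells lie where the smallest ducts meet the acini and share keratins with duct cells.

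Cluster 11 was well covered. Its cells summed to 3946421 UMIs (unique molecular identifiers, each counting 1 captured RNA molecule) at day 7 and 6056791 at day 9. The median cell held 30424.5 UMIs at day 7 and 21886.5 at day 9, against 22720 and 19532 in the other CF cells. Mitochondrial UMIs were a median 4.84% and 4.31% of a cell, against 5.89% and 6.12%. The 4 CF libraries held between 1607 and 4499 retained cells, and 148 barcodes occurred in more than 1 of the 8 libraries, 3 of them on cells of cluster 11.

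The cluster was 7.97% of CF cells at day 7 (exact Clopper-Pearson 95% interval 6.69% to 9.40%) and 10.7% at day 9 (9.50% to 12.0%). It was 0.111% at day 2 and 0.0727% at day 5. Nearly all members thus came from the later cultures. The intervals of day 7 and day 9 did not overlap among all cells. Nor did they among cells of at most 10% mitochondrial UMIs, with 10.0% (8.44% to 11.8%) and 14.0% (12.5% to 15.7%). They overlapped among cells of at least 3000 UMIs, with 10.7% (9.01% to 12.6%) and 11.7% (10.4% to 13.1%). With 1 library a day the day and the library cannot be told apart. All intervals here cover counting error only. There was 1 library of pooled donors for each day and the cluster had been drawn from the same genes, so no test was made between the cluster and other cells, and every difference below is a description.

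Levels are given in CPM, the UMIs of a gene per 1e6 UMIs of the summed cells. Differences are given as log2(CPM + 1) of cluster 11 minus that of the other CF cells, a scale that understates the difference of genes near 1 CPM. Of the 8309 genes that reached 10 CPM on either side at day 7, 6.68% were at least 2-fold higher in the cluster and 7.79% at least 2-fold lower. At day 9 these shares were 7.06% and 6.95% of 8229 genes. The median gene differed by 0.02 at day 7 and 0.12 at day 9. Without 1 cell per day that is described below, the shares were 6.49% and 7.87% at day 7 and 6.98% and 6.99% at day 9. At both days together, 5.30% of 8033 genes were at least 2-fold higher and 5.94% at least 2-fold lower. Most differences were smaller against the other CF cells of the same class name, centroacinar. Of the genes named here, 69 were at least 2-fold higher at day 7 and 66 at day 9, of which 63 and 64 lay nearer to 0 in that comparison and 58 and 60 stayed beyond 2-fold. Of 33 and 32 lower genes, 30 and 29 lay nearer to 0 and 27 and 30 stayed beyond 2-fold. The median of the higher genes went from 2.67 to 1.97 at day 7 and from 2.14 to 1.81 at day 9, and that of the lower genes from -4.49 to -2.41 and from -4.37 to -3.08. None of these genes turned. Beside those given with their values below, BNC1, CA9, CCN2, CAPG, CFTR, ISG20, S100A6 and SQSTM1 at day 7, LTB, KRT5, DDIT3 and S100A4 at day 9 and AMOTL1 at both days no longer passed 2-fold.

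The 7 genes that give the group its name all passed 2-fold at both days when every cell was counted, but they fell into 2 kinds once single cells were examined. TAGLN, FN1, CALD1 and INHBA were spread over the cluster. ACTA2, COL1A2 and much of COL1A1 were held by 1 cell per day, without which ACTA2 and COL1A2 fell under 10 CPM at day 9.

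TAGLN, an actin-binding protein of smooth muscle, stood at 3317 CPM in cluster 11 and 139 CPM in the other CF cells at day 7, a ratio of 23.8 (95% interval 22.98 to 24.6). At day 9 it stood at 2877 and 276 CPM, a ratio of 10.4 (10.2 to 10.7). UMIs of TAGLN were found in 110 of 128 cells at day 7 and 228 of 266 at day 9. These were 85.9% and 85.7% of the cells, against 20.4% and 30.7% of the other, shallower CF cells. In the CF cluster with the lowest share after thinning to 3000 UMIs, of like depth, a UMI was found in 0 of 56 cells at day 7 and 0 of 139 at day 9, which allows up to 5.36% and 2.16%, and in cluster 11 in 84.4% and 82.7%. No cell held more than 5.01% of the UMIs of the cluster.

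FN1, which encodes fibronectin, stood at 2661 against 115 CPM at day 7 (ratio 23.2, 22.3 to 24.1) and at 1973 against 219 CPM at day 9 (ratio 9.01, 8.77 to 9.26). It was seen in all 128 cells at day 7 and in 263 of 266 at day 9. CALD1, the actin- and calmodulin-binding caldesmon, stood at 2363 against 112 CPM and at 2078 against 210 CPM, and was seen in every cell of both days. INHBA, which encodes the subunit of activin A, was scarcer, with 88.2 against 2.24 CPM at day 7 and 119 against 6.58 CPM at day 9. It was seen in 70 of 128 cells and 165 of 266 cells. The ratios of TAGLN, FN1, CALD1 and INHBA were all smaller at day 9 than at day 7. The level in the cluster fell between the days for TAGLN, FN1 and CALD1, and the level in the other CF cells was higher at day 9 for all 4. The make-up of those other cells also differed between the days. CF cluster 3, which carries TAGLN, FN1 and CALD1 as described below, gave 135 of 1479 of them at day 7 and 521 of 2223 at day 9. The part that this played was not tested.

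ACTA2, smooth muscle actin, stood at 206 CPM in cluster 11 against 0.552 CPM in the other CF cells at day 7, and at 70.2 against 0.956 CPM at day 9. A single cell held 766 of the 814 UMIs at day 7 and another held 405 of the 425 UMIs at day 9. Without these cells, the level was 12.3 CPM at day 7 (exact Poisson 95% interval 9.10 to 16.4) and 3.33 CPM at day 9 (2.03 to 5.14). The ratio to the other CF cells became 22.4 (12.6 to 41.5) in place of 374 at day 7 and 3.48 (1.94 to 6.06) in place of 73.4 at day 9. The remaining ACTA2 lay in 14 of 127 cells at day 7 and 9 of 265 at day 9, with at most 11 and 7 UMIs in a cell.

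COL1A1 and COL1A2, the 2 chains of type I collagen, were shared between the same single cells and the rest. For COL1A1 the single cell held 343 of 611 UMIs at day 7 and 126 of 363 at day 9. Without it COL1A1 stood at 68.9 CPM against 1.53 CPM in the other CF cells at day 7, a ratio of 45.2 (33.0 to 63.0), and at 39.4 against 6.73 CPM at day 9, a ratio of 5.85 (4.91 to 6.97). UMIs of COL1A1 were found in 50 of 127 and 74 of 265 of the remaining cells. For COL1A2 the single cell held 156 of 221 and 150 of 203 UMIs, and without it the levels were 16.7 and 8.81 CPM, against 0.357 and 0.819 CPM. Type I collagen thus stayed higher in the cluster without those cells, at a lower level.

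**Figure D1:**
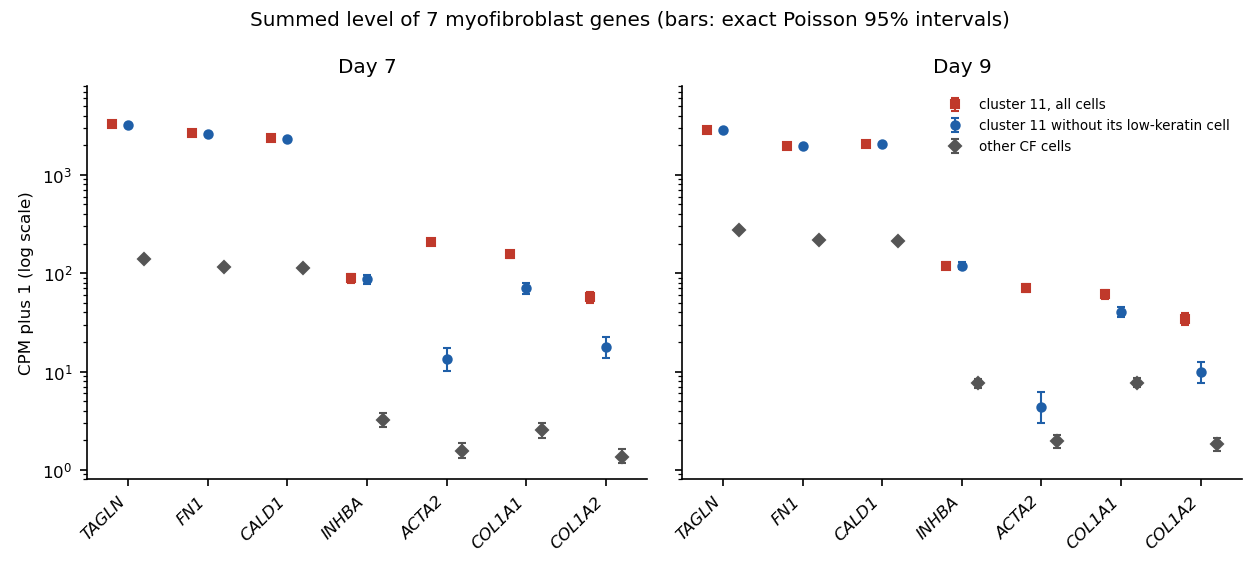
Summed level of the 7 myofibroblast genes at day 7 and day 9, in CPM plus 1 on a log scale, for all cells of cluster 11 (squares), for the cluster without its low-keratin cell (circles) and for the other CF cells (diamonds), with exact Poisson 95% intervals. TAGLN, FN1, CALD1 and INHBA are at nearly the same place with and without that cell, whereas ACTA2 goes from 206 to 12.3 CPM at day 7 and from 70.2 to 3.33 CPM at day 9.

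The single cells differed from the rest of the cluster in keratin. KRT7 and KRT19 are the keratins of simple duct epithelium. A limit of 10 KRT7 and KRT19 UMIs per 10000 was chosen with these values in view, and 6 cells of the cluster lay under it, 1 at day 7, 1 at day 9 and 4 at day 2. The highest of the 6 had 2.36 per 10000. The lowest cell above the limit, a day 2 cell, had 22.5, and the lowest above it at day 7 and 9 had 30.8. The median of the cells above the limit was 83.4. No cell of the cluster lay near the limit.

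The low-keratin cell of day 7 had 57991 UMIs, with 0 of KRT7, 1 of KRT19, 1 of EPCAM and 0 of CDH1. The low-keratin cell of day 9 had 42120 UMIs, with 1 of KRT7, 1 of KRT19 and 0 each of EPCAM and CDH1. Both were among the deeper cells of their library, and both nearly lacked the genes of epithelium.

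They held instead several genes of stromal cells. The day 7 cell had 75 UMIs of COL3A1 (type III collagen), 90 of THY1 (a fibroblast surface protein), 166 of LGALS1 (galectin-1), 240 of TPM2 (a muscle tropomyosin), 116 of POSTN (periostin) and 8 of PDGFRB (a receptor of pericytes and fibroblasts). The day 9 cell had 41, 45, 169, 61, 121 and 17 UMIs of the same genes. Other stromal markers had no UMI in either cell, among them PDGFRA, MYH11, DES, CNN1, DPT and MFAP5. In the other 127 and 265 cells of the cluster, COL3A1 and THY1 had 0 UMIs, which allows a share of up to 2.36% and 1.13% of cells with a UMI by the limit of 3 counts. The low-keratin cells in turn had 0 UMIs of ANKRD1, SRGN, CD69 and AGR2, genes that the rest of the cluster carried.

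The same holds in the series as a whole. Only 7 of its 32945 cells had at least 5 COL3A1 UMIs, and all 7 were in cluster 11, namely the low-keratin cells of day 7 and day 9 and 5 cells at day 2. The same count was found for cells with at least 5 THY1 UMIs. These 7 cells held 45 of the 48 PDGFRB UMIs of the series. At day 2, 4 of the 5 had at most 2 KRT7 and KRT19 UMIs in 8462 to 25254 UMIs. The fifth had 24 KRT7 and 50 KRT19 UMIs beside 162 of COL1A1 and 23 of COL3A1. The 5 members of day 2 were thus all cells with stromal transcripts, whereas at day 7 and 9 such cells were 1 of 128 and 1 of 266.

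**Figure D2:**
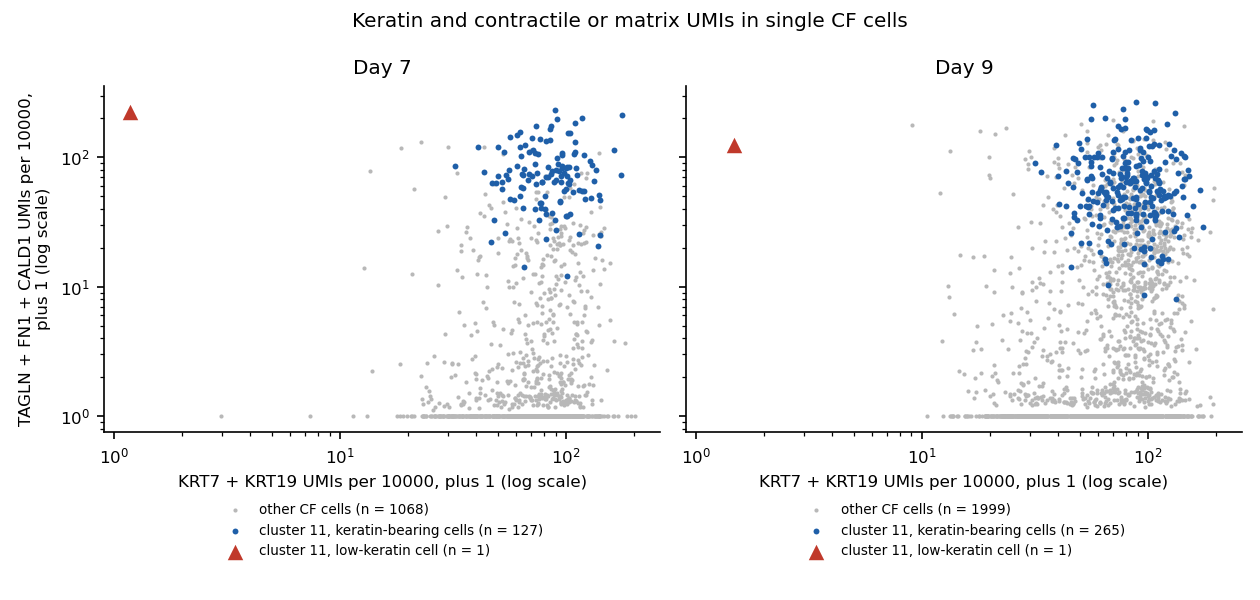
Each point is 1 CF cell of at least 3000 UMIs, with KRT7 and KRT19 UMIs per 10000 on the horizontal axis and TAGLN, FN1 and CALD1 UMIs per 10000 on the vertical axis, both plus 1 on log scales, at day 7 and day 9. The 127 and 265 keratin-bearing cells of cluster 11 lie high on the vertical axis, and 1 low-keratin cell per day (triangle) has the least keratin of the cells plotted while also lying high on that axis. A few other CF cells lie toward the left too.

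All remaining values are given for the whole cluster, as its rule defines it, and the value without the low-keratin cell is added wherever it moved the reading.

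The keratin-bearing cells, which the keratin limit itself defines, also carried epithelial genes that the limit did not use. CDH1 (E-cadherin) was seen in 127 of 127 and 262 of 265 of them and EPCAM in 122 and 258, while the low-keratin cells had at most 1 UMI of either. In the other CF cells, which were shallower, CDH1 was seen in 81.0% and 90.0% and EPCAM in 72.4% and 83.2%. At an equal depth of 3000 UMIs the order of CDH1 turned. It was then found in 58.3% and 62.6% of the keratin-bearing cells and in 70.2% and 73.4% of the other CF cells. EPCAM was found in 40.2% and 46.4% against 40.0% and 41.1%. After every cell of the cluster had been thinned to 3000 UMIs, FN1 and KRT7 were found together in 96.1% of the 128 cells (91.1% to 98.7%) at day 7 and in 94.0% of the 266 cells (90.4% to 96.5%) at day 9. KRT7 was found in nearly every CF cell, so these shares are close to those of FN1 alone, 96.9% and 94.4%. No cell of cluster 11 had under 3000 UMIs, while 411 and 224 of the other CF cells did and were left out. In CF cluster 18, of like depth, FN1 was found in 0 of 110 cells at day 7, which allows up to 2.73%, and in 3.60% of 139 cells at day 9. Cluster 18 is the CF cluster with the lowest share of FN1. Thinned shares of FN1 in the other CF cells were 12.7% and 25.6%.

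Thinned shares of ACTA2 gave the contrast. Within the keratin-bearing cells 2 of 127 and 2 of 265 had a UMI of ACTA2, 1.57% (0.191% to 5.57%) and 0.755% (0.0915% to 2.70%). The other CF cells had 0.281% and 0.300%, and the intervals overlapped at both days. With 5000 UMIs they did not overlap at day 7, with 3.97% (1.30% to 9.02%) against 0.195% (0.0236% to 0.702%), and overlapped at day 9, with 1.51% against 0.158%. Unthinned shares were 11.02% (6.16% to 17.8%) and 3.40% in the keratin-bearing cells and 1.15% (0.671% to 1.83%) and 1.17% in the other CF cells.

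Among the 20 genes that lay highest in cluster 11, ranked by the smaller of the day 7 and day 9 differences, were ACTA2, INHBA, CD69, ANKRD1, DPYSL3, TAGLN, CALD1, FN1, SRGN, COL1A1, LAMA4, CMTM7, COL4A1, ADAMTS5, FILIP1L, PALLD, COL12A1, COL5A2 and CTHRC1. When the ranking was repeated without the low-keratin cells, 16 of the 20 were named again. ACTA2, COL1A1, LAMA4 and COL4A1 left the list, and HTRA1, FADS3 and MYL9 were among those that entered it.

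Of the surface and signalling genes, CD69, best known as an early activation receptor of lymphocytes, differed by 4.12 at day 7 (95.3 against 4.55 CPM) and by 3.85 at day 9 (106 against 6.39 CPM). The leukocyte gene PTPRC had 0 UMIs in the cluster and in the other CF cells at both days. ANKRD1, a nuclear ankyrin protein and target of YAP, differed by 4.45 and 3.39. SRGN, the core protein of the proteoglycan serglycin, differed by 3.14 and 3.25.

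Several of the highest genes build or remodel matrix. COL12A1, a fibril-associated collagen, had 189 against 14.5 CPM at day 7 and 150.2 against 25.5 CPM at day 9. COL5A2, a fibrillar collagen chain, differed by 2.74 and 2.46. ADAMTS5, a metalloproteinase that cleaves aggrecan, differed by 3.07 and 2.68. The serine protease HTRA1 differed by 2.31 and 2.48. PALLD, a scaffold of actin bundles, differed by 3.08 and 2.60, and MYL9, the regulatory light chain of non-striated myosin, by 2.99 and 2.29.

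The 15 lowest genes by the same ranking were UPK1A, WFDC2, ECRG4, CXCL17, MUC1, MAL, PSCA, LTF, TFF1, SCNN1A, TFF2, BCAS1, SPINK1, MUC5AC and TFF3. The same 15 were named without the low-keratin cells. Low levels of these genes were not particular to cluster 11: over all days, 13 of the 15 in CF cluster 3 and 10 of the 15 in CF cluster 5 were lower than in its keratin-bearing cells or less than 2-fold higher. UPK1A, a uroplakin of urothelium, had 2.53 CPM in the cluster against 271 CPM in the other CF cells at day 7 and 3.14 against 313 CPM at day 9. MUC1, a membrane mucin of duct cells, had 11.7 against 565 CPM and 10.7 against 467 CPM. WFDC2, a secreted protein with a protease inhibitor fold, had 2 UMIs in 3946421 at day 7 and 18 in 6056791 at day 9, against 108 and 308 CPM.

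SCNN1A, the alpha subunit of the epithelial sodium channel, differed by -5.07 at day 7 and -5.03 at day 9. The trefoil peptide gene TFF2 differed by -6.03 and -4.96, and SPINK1, the trypsin inhibitor of pancreatic juice, by -4.88 and -6.49. LTF, which encodes lactoferrin, differed by -5.19 and -5.78. All 15 genes were at least 4.84 lower on the log2 scale at both days. Against the other CF cells of the centroacinar class the differences were smaller, above all at day 7, with -2.28 and -4.13 for SCNN1A, -3.54 and -4.49 for TFF2, -2.51 and -4.19 for SPINK1 and -1.72 and -5.28 for LTF.

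**Figure D3:**
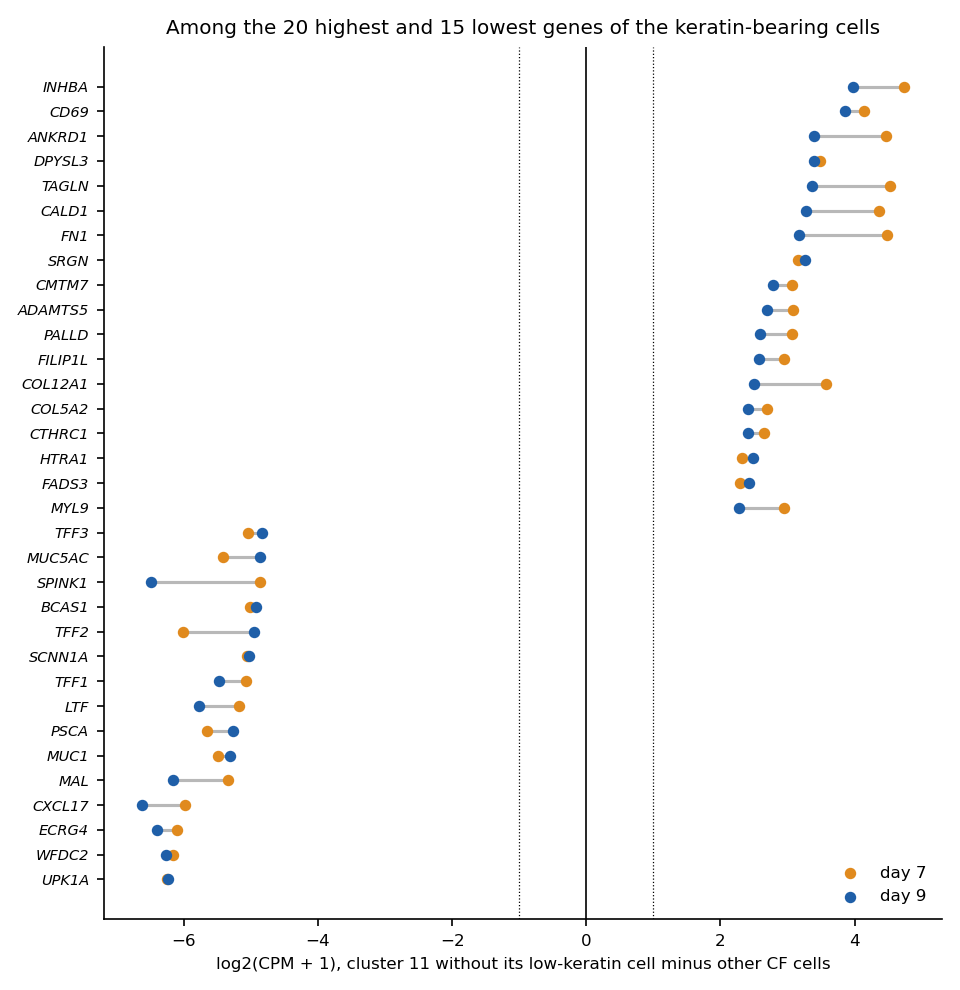
The log2(CPM + 1) difference between the keratin-bearing cells of cluster 11 and the other CF cells, at day 7 and day 9, for genes among the 20 highest and 15 lowest of these cells. Dotted lines mark 2-fold. INHBA lies at 4.74 and 3.98 and UPK1A at -6.25 and -6.24. The rule that chose the genes required the same direction at both days.

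Contractile and cytoskeletal genes were mostly higher. Of 22 listed contractile genes, 17 reached 10 CPM at each day. Of these, 14 at day 7 and 13 at day 9 were at least 2-fold higher (all genes 6.68% and 7.06%) and none was lower. The median difference was 1.61 and 1.44 (all genes 0.02 and 0.12). ACTA2, TAGLN and CALD1, which help give the group its name, are contractile genes too. The count is therefore not independent of that name. Without the low-keratin cell 12 of 16 and 10 of 15 were higher. FLNA (filamin A) differed by 2.14 and 1.62, ACTN1 (alpha-actinin) by 1.67 and 1.44 and TPM4, a tropomyosin of non-muscle cells, by 1.61 and 1.18. TPM2 differed by 5.47 and 2.88 with the low-keratin cell and by 0.51 and -0.21 without it. ACTG2, CNN1 and LMOD1, genes of differentiated smooth muscle, did not reach 10 CPM on either side.

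Collagens were higher as a group. Of 20 listed, 12 reached 10 CPM at day 7 and 11 at day 9. Of these, 11 and 10 were at least 2-fold higher (all genes 6.68% and 7.06%), with medians of 3.20 and 2.46. COL1A1 and COL1A2 help give the group its name, so this count too is not independent of that name. Without the low-keratin cell the counts were 9 of 10 and 8 of 9 and the medians 2.79 and 1.89. COL7A1, the anchoring fibril collagen, differed by 2.77 and 1.43. COL17A1, the hemidesmosome collagen of epithelium, had 679.6 against 305 CPM at day 7 and 497 against 238 CPM at day 9, but differed by only 0.48 and 0.75 from cells of the centroacinar class. COL18A1, a basement membrane collagen, differed by 1.85 and 1.49. COL4A1, a chain of basement membrane collagen, differed by 4.19 and 2.73, or by 3.46 and 2.15 without that cell. Within the cluster, COL3A1 had no UMI outside the low-keratin cell at either day.

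Genes that modify collagen chains moved with them. Of 11 and 10 measured at 10 CPM, 9 at each day were at least 2-fold higher (all genes 6.68% and 7.06%) and none was lower. SERPINH1, the collagen chaperone HSP47, differed by 1.99 and 2.07. P4HA2, a prolyl hydroxylase, differed by 1.77 and 1.48. LOX, which cross-links collagen, had 25.8 against 0.682 CPM and 8.09 against 0.546 CPM.

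Matrix glycoproteins were mixed. SPP1 (osteopontin) had 5787 against 480 CPM at day 7 and 6213 against 1351 CPM at day 9. SPARC (osteonectin) differed by 2.73 and 1.96, IGFBP7 by 1.55 and 1.83 and FSTL1, a follistatin-like secreted protein, by 3.25 and 2.13. TGFBI, a matrix adhesion protein induced by TGF-beta, was lower, by -2.46 and -2.36. POSTN differed by 3.00 and 3.13, and by -1.92 and -0.87 without the low-keratin cell, so its direction was set by that cell. In all, 9 of 14 at day 7 and 7 of 13 at day 9 were at least 2-fold higher (all genes 6.68% and 7.06%). At each day 1 was lower, and the medians were 2.24 and 1.83 (2.14 and 1.09 without the low-keratin cell).

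Laminins and integrins, through which epithelium holds to its basement membrane, were mostly higher. At each day 11 of 15 members were at least 2-fold higher (all genes 6.68% and 7.06%) and none was lower. LAMA3, a laminin chain of epithelial basement membrane, differed by 2.17 and 2.09. ITGB1, the common beta-1 integrin chain, had 3008 against 719 CPM at day 7 and 2697 against 794 CPM at day 9. ITGB6, the epithelial integrin chain that activates latent TGF-beta, differed by 1.61 and 1.31, and ITGB3 by 2.07 and 2.16.

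Of mesenchymal adhesion and cytoskeletal genes, 10 of 14 at day 7 and 9 of 13 at day 9 were at least 2-fold higher (all genes 6.68% and 7.06%). None was lower at day 7 and 1 was lower at day 9. Without the low-keratin cell, 8 of 12 were higher and 1 was lower at each day. VIM (vimentin) had 969 against 138 CPM at day 7 and 896 against 174 CPM at day 9, and was seen in 126 of 127 and 263 of 265 keratin-bearing cells. CDH2 (N-cadherin) had 25.8 against 2.21 CPM and 39.1 against 3.03 CPM. PDPN (podoplanin) differed by 2.67 and 2.25 and TMSB10 (thymosin beta-10) by 1.99 and 1.34. LGALS1 at both days and THY1 at day 7 passed 2-fold with the low-keratin cell and had at most 1 UMI in the rest of the cluster. S100A4, often used as a fibroblast marker, differed by 0.59 and -1.20 with that cell and by -3.33 and -4.09 without it.

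Transcription factors of EMT differed less. Of 11 and 12 that reached 10 CPM, 5 at day 7 and 4 at day 9 were at least 2-fold higher (all genes 6.68% and 7.06%). None was lower. SNAI2 (Slug) differed by 1.11 and 1.43, RUNX1 by 1.37 and 1.27 and LEF1 by 2.11 and 1.44. Against the other CF cells of the centroacinar class SNAI2 and RUNX1 did not pass 2-fold at day 7, with 0.38 and 0.93, and differed by 1.09 and 1.05 at day 9. TWIST1 had 44.6 against 29.9 CPM and 61.1 against 31.1 CPM, differences of 0.56 and 0.95. SNAI1, ZEB1, ZEB2 and PRRX1 were under 10 CPM on both sides.

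Beside INHBA, the ligand genes TGFB1 and TGFB2 were at least 2-fold higher than in the other CF cells. TGFB1 had 204 against 77.5 CPM at day 7 and 205 against 79.7 CPM at day 9, and TGFB2 differed by 1.93 and 1.98. The receptor gene TGFBR2 differed by -0.15 and -0.26, and TGFBR3, the co-receptor betaglycan, had 2.03 against 11.1 CPM and 3.14 against 8.65 CPM. The activin antagonists FST (follistatin) and FSTL3 differed by 2.61 and 1.57 at day 7 and by 1.44 and 1.57 at day 9. Against the centroacinar class TGFB1 and FSTL3 did not pass 2-fold at day 7, with 0.76 and 0.86, and differed by 1.03 and 1.25 at day 9. SMAD2, SMAD3 and SMAD4 differed by 0.21 to 0.40. Of the listed ligands, receptors and inhibitors, 5 of 17 and 5 of 16 were at least 2-fold higher (all genes 6.68% and 7.06%). At day 7, 1 (TGFBR3) was lower (all genes 7.79%). The median was 0.39 and 0.34.

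TGF-beta target genes were at least 2-fold higher in 8 of 17 members at day 7 and 5 of 17 at day 9, with 1 lower. Of all genes, 6.68% and 7.06% were higher. The members beyond 2-fold at both days included TAGLN, FN1, COL1A1 and COL4A1, all named above, and TGFBI was the lower one. TAGLN, FN1 and COL1A1 are among the 7 genes that give the group its name, so the count is not independent of that name. SMAD7, SKIL and PMEPA1, feedback genes of the pathway, differed by 0.39, -0.21 and 0.92 at day 7 and by 0.78, -0.11 and 0.93 at day 9. Of 15 YAP and TEAD targets, 7 and 6 were at least 2-fold higher. These included F3 (tissue factor, 1.83 and 1.21) and AMOTL1 (1.01 and 1.07), while CCN2 (CTGF) differed by 1.06 and 0.50.

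Epithelial junction genes were partly lower. Of 24 measured, 8 at day 7 and 5 at day 9 were at least 2-fold lower (all genes 7.79% and 6.95%). At each day 2 were at least 2-fold higher (all genes 6.68% and 7.06%). The median was -0.58 and -0.46. TJP3, a scaffold of tight junctions, had 0.253 against 27.2 CPM and 0.991 against 22.5 CPM. OCLN (occludin) differed by -1.54 and -1.65, CLDN7 by -1.05 and -1.09, and ELF3, an epithelial transcription factor, by -2.39 and -2.25. CDH1 differed by -0.49 and -0.73 and EPCAM by 0.04 and 0.09. PKP2 (plakophilin 2) was higher, by 1.35 and 1.05. Against the centroacinar class CLDN7 (-0.66 and -0.91) and PKP2 (0.96 and 0.85) passed 2-fold at neither day, and OCLN (-0.18 and -1.17) only at day 9. Simple keratins stayed between the 2-fold limits, with KRT7 at 0.67 and 0.56, KRT18 at 0.94 and 0.82, KRT8 at -0.07 and -0.50 and KRT19 at -0.33 and -0.17. Mesenchymal genes were thus higher in cells in which keratin and EPCAM levels were near those of the other CF cells.

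Secretory and mucosal genes were 11 of 12 lower at day 7 and 10 of 12 at day 9 (all genes 7.79% and 6.95%). The medians were -5.07 and -4.91. AGR2, a disulfide isomerase of mucus cells, was not lower, with 414 against 49.95 CPM at day 7 and 165 against 156 CPM at day 9, and CFTR, also in this list, differed by -1.02 and -0.23. The progenitor markers, by which the study named clusters of these libraries, are largely mucins and trefoil factors and were lower in 8 of 10 members at each day. Of its 4 centroacinar markers at 10 CPM, KRT7 and WSB1 differed by less than 2-fold and S100A6 was lower, by -1.60 and -1.99. S100A4, whose values are given above, is also one of them. Without the low-keratin cell S100A4 was lower too, so that 2 of 4 were lower at each day and none was higher. The medians were then -0.60 and -0.96.

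Duct and progenitor factors were little different. GATA3 differed by -0.31 and -0.25, TP63 by -0.13 and 0.15, and GATA6 by 0.27 and 0.50. FOXA1 was lower, by -1.74 and -1.68. PDX1 had 1.52 against 5.49 CPM at day 7 and 4.13 against 4.48 CPM at day 9, from 6 and 25 UMIs in the cluster. CFTR, the targeted gene, had 5.32 against 11.9 CPM and 9.74 against 11.6 CPM, from 21 and 59 UMIs in the cluster. The study describes the knockout as making neither CFTR RNA nor protein, and these UMIs go against that description as to RNA. Over whole libraries CFTR had 2.50 to 11.4 CPM in the 4 CF libraries and 6.57 to 29.5 CPM in the 4 WT libraries, lower in CF at each of the 4 days. The counts do not tell which part of the gene they come from, so they check neither the targeted site nor the protein. SOX2 had 0 UMIs in cluster 11 at both days, and differed by only -0.23 and -0.04 from the other CF cells of the centroacinar class.

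In the WNT list, 4 of 11 genes at day 7 and 3 of 11 at day 9 were at least 2-fold higher (all genes 6.68% and 7.06%). At each day 1 was lower. SFRP1, a secreted WNT inhibitor, differed by 1.81 and 2.24 and the ligand gene WNT7A by 2.81 and 2.60, while WNT5A was lower, by -2.65 and -2.99. In the BMP list 1 of 9 genes, ID4 at day 7, passed 2-fold, downward. In the hypoxia list 1 of 11 genes, CA9 at day 7 (1.08), was at least 2-fold higher and none at day 9. Over all genes at day 7 the shares were 7.79% lower and 6.68% higher, so these single calls are no result about either list. Of 7 interferon-stimulated genes, ISG20 and MX2 were lower at both days (5.94% of all genes). MX2 differed by -4.33 and -3.90, while ISG15 differed by 0.71 and 1.28. Against the centroacinar class MX2 differed by -1.26 and -2.78, ISG20 by -0.91 and -2.19 and ISG15 by 1.71 and 1.40.

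**Figure D4:**
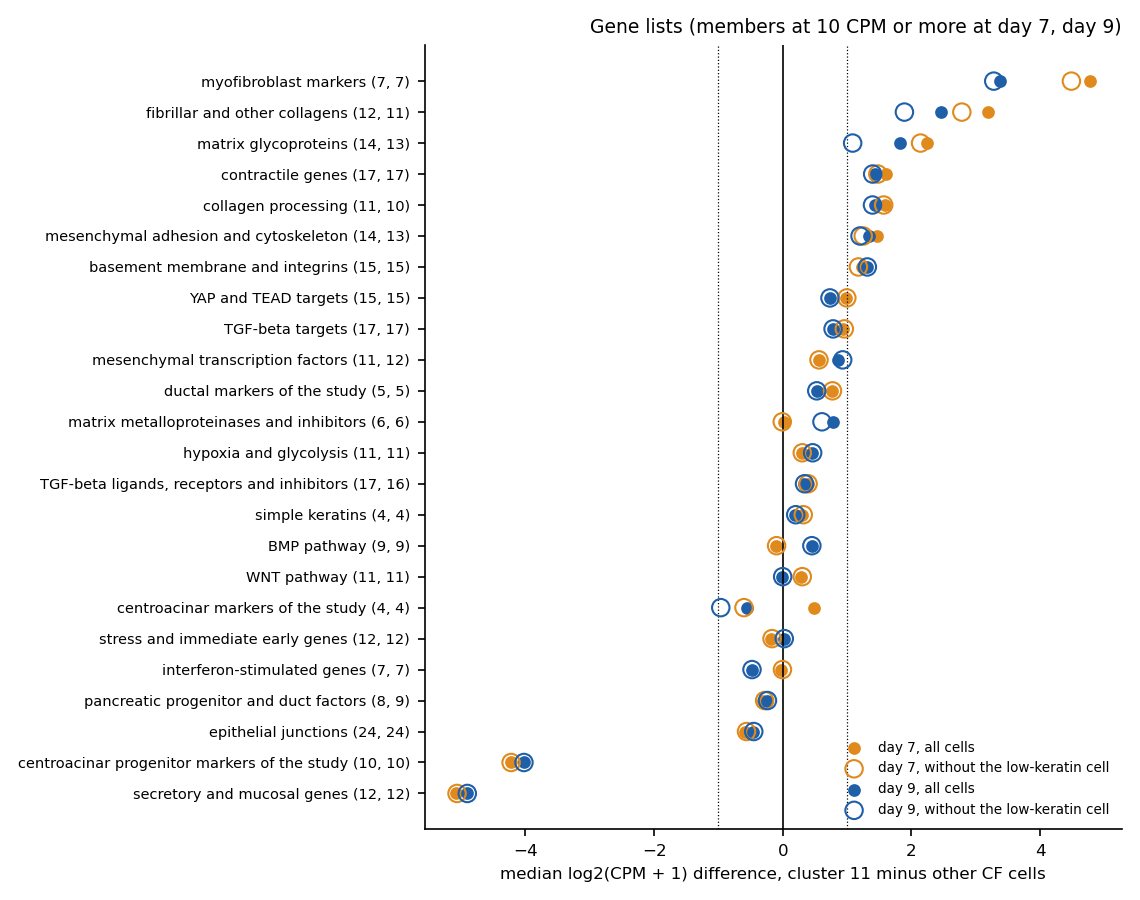
Median log2(CPM + 1) difference of gene lists with at least 4 members at 10 CPM, for cluster 11 minus other CF cells at day 7 and day 9 (filled points), and the same without the low-keratin cell (open circles). Numbers beside the names give the members measured at day 7 and day 9, and dotted lines mark 2-fold. The 7 naming genes lie at 4.78 and 3.38 and secretory and mucosal genes at -5.07 and -4.91.

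Markers of other cell types were searched in the same way. Of 15 fibroblast and stellate markers, summed to 445 and 336 CPM in the cluster and 61.8 and 66.0 CPM in the other CF cells, PDPN made up 383 and 308 CPM and 6 were at 0 in the cluster at each day. Without the low-keratin cell PDPN alone reached 10 CPM. PDGFRA was at 0.253 and 1.49 CPM against 2.37 and 1.87 CPM. The 12 smooth muscle and pericyte markers summed to 44.1 and 21.0 CPM, and to 8.49 and 8.31 CPM without that cell, against 11.3 and 10.9 CPM.

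Endothelial markers summed to 0.253 and 0.165 CPM in the cluster, with 8 of 9 at 0 at each day, and 8 immune markers to 2.53 and 3.797 CPM, below the 6.66 and 9.53 CPM of the other CF cells. None of the 5 acinar markers that could be measured, of 12 listed, reached 10 CPM. Of 5 mesothelial markers, UPK3B was lower and BNC1 higher by at least 2-fold at both days. Of the glial markers only ERBB3, which epithelium also expresses, reached 10 CPM, and of the endocrine markers only ISL1.

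Deposited phase calls put 50.8% and 49.2% of the cluster in G2M at day 7 and 9, against 31.6% and 33.6% of the other CF cells. Cell cycle genes did not follow. MKI67 had 2 UMIs at day 7 and 5 at day 9 in the whole cluster, and CCNA2 had 0 at both. PCNA alone of 16 listed genes reached 10 CPM and differed by 0.50 and 0.58. No cycling was read from the phase calls.

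Several genes that were higher in the cluster varied widely among its cells. After thinning to 3000 UMIs, SPP1 had a variance 20.1 times its mean over the 127 keratin-bearing cells of day 7 and 14.7 times over the 265 of day 9, against a median of 1.098 and 1.089 over the 1001 and 1005 genes with a mean of at least 0.5 UMI. CLU (clusterin), an abundant secreted chaperone, ranked next with 9.57 and 10.2. TAGLN had 7.76 and 7.74 and was absent from 15.7% and 17.4% of thinned cells. ANKRD1 had 7.56 and 5.52, and S100A6, which was lower in the cluster, 4.89 and 5.92. Unthinned, TAGLN had quartiles of 13.5 and 42.7 UMIs per 10000 at day 7 and of 9.09 and 38.4 at day 9, whereas those of KRT7 were 39.6 and 62.3, and 35.8 and 62.7.

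Between day 7 and day 9 few genes passed 2-fold within the cluster. Its cells had been grouped over all days by likeness of expression, which itself favours a small number. The same count was not made for other cells, so it does not show that the cluster was more stable than they were. Of 7887 genes at 10 CPM, 33 (0.418%) were at least 2-fold higher at day 9 and 29 (0.368%) at least 2-fold lower. Among the greatest rises of genes of 100 CPM or more were those in LTB, the lymphotoxin beta gene, from 27.4 to 143 CPM, in LY6D from 32.2 to 119 CPM, in IL32 from 97.3 to 300.0 CPM, and in SRGN from 360 to 851 CPM. SQSTM1, FAM174B and TST rose less, with 1.03, 1.01 and 0.87 on the log2 scale. These rises need not be confined to the cluster. Thinned shares of SRGN also rose in the other CF cells, from 8.80% at day 7 to 15.6% at day 9.

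Of genes of 100 CPM or more at either day, the largest falls were in FOS, from 390 to 113 CPM, in ACTA2 and COL1A1, in AGR2 from 414 to 165 CPM, in EDN1, the endothelin-1 gene, from 176 to 77.6 CPM, and in ADAMTS1, FST and DUSP1. ACTA2 and COL1A1 fell by 1.54 and 1.35 on the log2 scale, and by 1.63 and 0.79 without the low-keratin cells, where both were under 100 CPM at both days and COL1A1 differed by less than 2-fold. FOS also set the cluster apart more at day 9, with -0.21 and -1.71 against the other CF cells. With 1 library a day, these differences had no test.

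Other CF clusters shared the pattern in part. Over 11200 genes, the summed profile of cluster 11 had a Pearson correlation of 0.985 with CF cluster 3, the nearest of 28 other CF clusters of at least 50 cells, and 0.958 with CF cluster 5. These values are descriptions over genes of clusters that share libraries. CF cluster 3, of 135 cells at day 7 and 521 at day 9, carried TAGLN at 797 and 841 CPM, FN1 at 611 and 531 CPM and CALD1 at 583 and 597 CPM, between cluster 11 and the remaining cells. Its KRT7 was 4513 and 4802 CPM, near the 5256 and 5037 CPM of the keratin-bearing cells of cluster 11. INHBA was 4.94 and 15.4 CPM in cluster 3 and 85.4 and 119 CPM in the keratin-bearing cells of cluster 11.

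CF cluster 23 was chosen after its values were seen, as the other CF cluster with the most FN1. It had 32 cells at day 7 and 152 at day 9, with a median of 3025 and 3602.5 UMIs and 12.2% and 11.7% mitochondrial UMIs, and was much shallower than cluster 11. At day 9 it held FN1 at 3565 CPM, CALD1 at 2377 CPM and TAGLN at 1604 CPM, and COL1A1 at 117 CPM. Its INHBA was 38.0 CPM at day 7 and 149 CPM at day 9. EPCAM was 71.3 CPM there and 201 CPM in the keratin-bearing cells of cluster 11. The summed profile of cluster 23 had a correlation of only 0.846 with that of cluster 11. Of the 15 lowest genes, 1 was lower in cluster 23 than in those keratin-bearing cells or less than 2-fold higher, over all days. TAGLN, FN1 and CALD1 together made up a median 0.716% of the UMIs of a cell of cluster 11 at day 7 and 0.573% at day 9, and 0.179% and 0.603% in cluster 23. These transcripts were thus not particular to cluster 11.

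**Figure D5:**
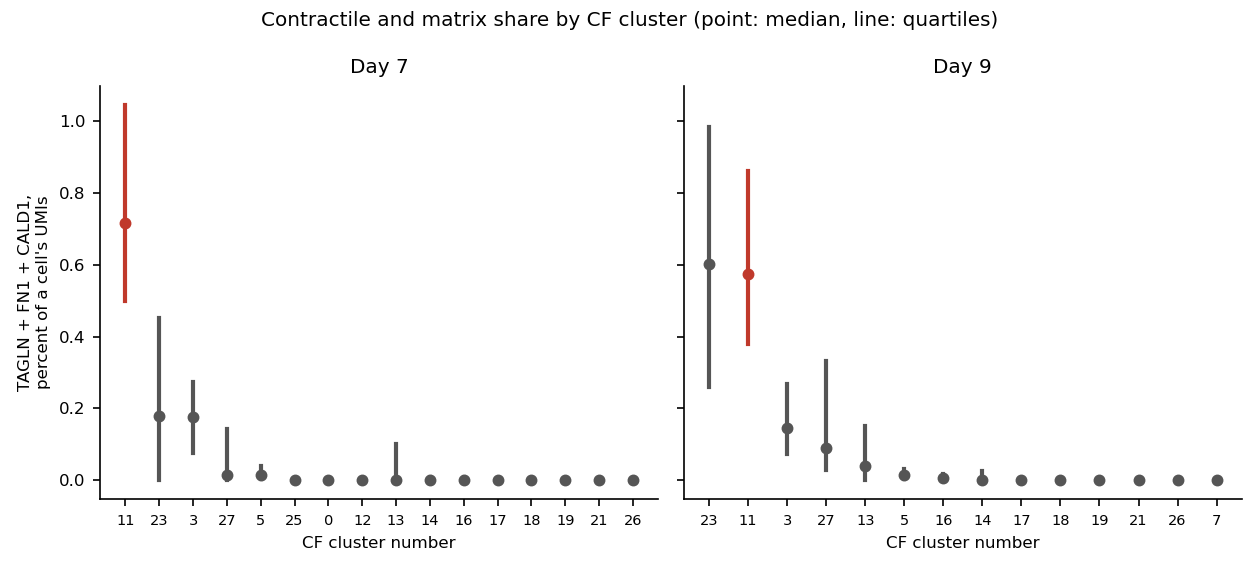
Share of a cell's UMIs in TAGLN, FN1 and CALD1 together, in percent, for each CF cluster with at least 20 cells at day 7 and at day 9, with the median (point) and quartiles (line) over cells. Cluster 11 has the highest median at day 7, 0.716%, and lies beside cluster 23 at day 9, with 0.573% and 0.603%.

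WT cultures held a like group. WT and CF cells had been clustered apart, and the nearest of 39 WT clusters was WT cluster 2, with a correlation of 0.937. WT clusters 36, 8 and 5 were nearly tied with it, at 0.936, 0.936 and 0.934. WT cluster 2 had 1051 cells over the 4 days, 52 of them at day 7 and 321 at day 9, and bore the deposited class name ductal. At day 7 and 9 it carried TAGLN at 1545 and 1629 CPM, FN1 at 1353 and 1258 CPM, CALD1 at 3121 and 2401 CPM and INHBA at 145 and 137 CPM. KRT7 and KRT19 were seen in each of these cells. ACTA2 had 0 and 1.26 CPM and COL1A1 1.25 and 0.899 CPM. The nearly tied clusters carried less of TAGLN, FN1, CALD1 and INHBA than WT cluster 2 at both days. At day 9 FN1 was 540 CPM in WT cluster 36, 22.7 CPM in WT cluster 8 and 654 CPM in WT cluster 5. A like overall profile thus did not go with a like level of FN1.

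The nearest WT cluster was lower than the keratin-bearing cells of cluster 11 in several of the genes named above, but not in all. CALD1 and INHBA were higher in WT cluster 2 at both days, against 2310 and 2054 CPM and 85.4 and 119 CPM in those cells. TAGLN and FN1 were lower in WT cluster 2, against 3227 and 2861 CPM and 2596 and 1974 CPM in those cells. SPP1 was 627 and 704 CPM in WT cluster 2 and 5873 and 6256 CPM in cluster 11, and VIM was 166 and 69.4 CPM against 878 and 832 CPM. COL1A1 in cluster 11 was 68.9 and 39.4 CPM. WFDC2 was 40.0 and 206 CPM in WT cluster 2, against 0.514 and 2.99 CPM. Most of the lowest genes did not part the 2 clusters in this way. Over all days, 11 of the 15 were lower in WT cluster 2 than in the keratin-bearing cells or less than 2-fold higher. In WT clusters 36, 8 and 5 as well, SPP1, VIM and COL1A1 were lower and WFDC2 was higher than in those cells at both days, with 8 cells of WT cluster 8 at day 7. With 1 library for each genotype and day, these genotype differences had no test, and genotype, library and the separate clustering cannot be told apart.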

How the data were processed

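The authors aligned reads with Cell Ranger 5.0.1 to ferret ASM1176430v1.1 with an improved transcript annotation, and deposited whole UMI counts of 27912 genes in 44243 barcodes. They filtered cells on genes and on the percent of mitochondrial reads, removed doublets with DoubletFinder, so that no doublet caller was run here, merged libraries in Seurat under R 4.1.2 without batch correction, and clustered WT and CF cells separately. Their deposited cell table gave 32945 cells with cluster, class, phase, a count of UMIs and percent of mitochondrial UMIs. A deposited normalized table and lineage scores were not used. Genes of the lists that the annotation does not hold by that symbol were not analysed here, and every column used has its sample from the labels. Some genes and 1 gene list are not reported here.

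Counts were summed per day over cluster 11 and over the other CF cells and scaled to CPM, with a pseudocount of 1 CPM on the log2 scale. Genes under 10 CPM on both sides were left out, and called means past 2-fold. Intervals are exact 95% intervals (Poisson for sums, Clopper-Pearson for shares, conditional binomial for ratios, scipy 1.17.1). Ratios are of CPM with no pseudocount. Shares were taken after thinning each cell to 3000 UMIs. Scaling factors for the alternatives came from edgeR 4.0.16, which was used for no test. The computation of folds was checked on simulated counts, and no fold of the real data was tested. Named genes were the 7 naming markers, the 20 highest and 15 lowest with a symbol and at least 50 CPM at both days in the same direction, the 8 highest and 8 lowest between days at 100 CPM, and list members beyond 2-fold, abundant or defining. The members, the 35 gene lists and this rule were chosen with earlier results of these data known. Likeness of clusters used log2(CPM + 1) of genes at 10 CPM in any cluster.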

Additional observations from a re-analysis of the deposited data

Results flagged for a closer look

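In 4 genes of the lists the difference between cluster 11 and the other CF cells pointed opposite ways at day 7 and day 9, beyond the counting intervals of both and by over 2-fold between the days. The difference between the days was not tested. S100A4 differed by 0.59 at day 7 and -1.20 at day 9 on the log2 scale. Its UMIs lay mostly in the low-keratin cell of each day, with 70 of 71 and 58 of 61, and without that cell the differences were -3.33 and -4.09, in the same direction. TIMP3, an inhibitor of metalloproteinases, differed by -0.66 and 0.90, and by -1.30 and 0.20 without that cell. KLF4 differed by 0.33 and -0.79. ID1, a BMP target, differed by -0.94 and 0.20, with 424 against 815 CPM at day 7 and 676 against 587 CPM at day 9.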

How the results depend on the processing

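With 1 library for each genotype and day, no result has a replicate check, and depth limits transcripts near 1 UMI per cell. The share of cluster 11 was 10.7% at day 7 and 11.7% at day 9 among cells of at least 3000 UMIs, and 10.0% and 14.0% at day 7 and 9 among cells of at most 10% mitochondrial UMIs. Genes at least 2-fold higher and lower numbered 555 and 647 at day 7 and 581 and 572 at day 9. With no floor on low values they were 868 and 1153 at day 7, and 934 were lower at day 9. Against other CF cells of the centroacinar class they were 295 and 385 at day 7, and 384 were higher at day 9. Of 380 values of single genes and list medians, 252 moved beyond their counting interval or across 2-fold in that comparison, 221 with a mean over cells, and 172 of 381 with TMM factors. With a mean over cells 347 were higher at day 9, and 5 gene lists in place of 3 had a median at least 2-fold lower at day 7. TMM factors moved the median gene by -0.18 at day 9, and the share of higher genes among those past 2-fold went from 50.4% to 35.5% there and from 46.2% to 40.4% at day 7. Median-ratio factors gave 36.7% at day 9, and the mean over cells, which moved the median gene by -0.10 at day 7, gave 34.2% and 36.3% at day 7 and 9. FN1 was found in 96.9% and 94.4% of cells of cluster 11 thinned to 3000 UMIs, in 99.2% at day 7 with 5000 UMIs, and in 100% and 98.9% with no thinning. ACTA2 was found in 2.34% and 1.13%, and in 11.7% and 3.76% with no thinning. Leaving out the low-keratin cells, an alternative chosen after seeing the data, moved each of these counts by less than 1.5 times and each share within its interval. It turned the differences of POSTN from 3.00 and 3.13 to -1.92 and -0.87 and that of TPM2 at day 9 from 2.88 to -0.21, the only named genes or lists beyond 2-fold that turned under any alternative run. The low-keratin cells held 116 of 116, 121 of 123 and 61 of 63 of these UMIs. Leaving them out also turned the median of the centroacinar markers at day 7 from 0.49 to -0.60.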

Other observations

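Matrix-degrading enzymes and their inhibitors were mixed in cluster 11. Of 6 that reached 10 CPM at each day, ADAMTS1 and TIMP2 were at least 2-fold higher at both days (5.30% of all genes). TIMP2, an inhibitor of metalloproteinases, had 36.7 against 10.7 CPM at day 7 and 53.99 against 15.9 CPM at day 9. MMP7 (matrilysin), an epithelial metalloproteinase, was lower, with 5.83 against 188 CPM and 19.3 against 581 CPM. MMP2 and MMP14, metalloproteinases of stromal cells, were under 2 CPM on both sides.

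Markers that the study gave to its ductal class were not lower as a group. Of 5 measured, 1 at day 7 and 2 at day 9 were at least 2-fold higher (all genes 6.68% and 7.06%) and none was lower. CAPG, an actin-capping protein, differed by 1.02 and 1.33, and KRT5, a basal keratin and the only one of 3 measured basal and squamous keratins, of 8 listed, that reached 10 CPM, by 0.79 and 1.04. ADIRF differed by -0.65 and -0.18. The study used these markers to name clusters of the same libraries.

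Stress and immediate early genes did not differ 2-fold at day 7 in any of 12 members. At day 9 FOS and FOSB were lower, FOSB by -2.41, and DDIT3 (CHOP), a factor of the unfolded protein response, was higher by 1.20.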
